A study of Mus musculus with 12 samples.

Results

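The enzymes described here carry long fatty acids into mitochondria and break them down by beta-oxidation. They were the 9 genes Cpt1a, Cpt2, Acadl, Acadm, Acadvl, Hadha, Hadhb, Acaa2 and Ech1, chosen by symbol among the 54532 genes of the count table. All 9 were among the 15014 genes with enough counts to be tested. They were measured in tumour-associated macrophages (TAMs) of 6 mice with glioma. The mice were labelled Ntv-a_Ink4a/Arf_KO, a background in which the nestin promoter drives the viral receptor tv-a and the Ink4a/Arf tumour suppressor locus is deleted. All 6 received rhodamine-labelled perfluoro-crown-ether nanoparticles into a vein (treatment label Rhodamine_PFCE_NP), and their tumours were taken 24 hours afterwards. From each tumour, more than 2000 rhodamine-positive cells (labelled Rhod_Uptaking) and more than 2000 rhodamine-negative cells (Rhod_Negative) were sorted, which gave 6 pairs of libraries under 1 batch label. Mice 1 to 4 were male and mice 5 and 6 female, and the deletion and the injection were common to both sorts, with no uninjected animal among the samples. The study compared cells that had taken up nanoparticles with those that had not. Age and the way the tumours were started are not given in the sources used here.

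Beta-oxidation shortens a fatty acid in repeated rounds and hands electrons to the respiratory chain and acetyl-CoA to the tricarboxylic acid cycle. Long fatty acids first cross the mitochondrial membranes as carnitine esters, which Cpt1a makes on the outer membrane and Cpt2 turns back into acyl-CoA inside. Each round then runs through an acyl-CoA dehydrogenase, a hydratase, a hydroxyacyl-CoA dehydrogenase and a thiolase. In macrophages this pathway is known for its use of fatty acids taken up from lipoproteins and engulfed cells.

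Hadha and Hadhb encode the 2 subunits of a single enzyme and lie head to head on chromosome 5, so the stretch between their starts is printed first, for the pair rose together. Acadl and Acadm follow, because they encode sister enzymes of the same step and gave different results. The letters are from RefSeq (GRCm38.p6) and run 5′ to 3′, with matches to GGGCGG (the GC box) and to AGGTCA (the core of many nuclear receptor sites) on either strand in capitals. The Hadha-Hadhb stretch is chr5:30155163-30155247 on the plus strand, the 85 bases between the GENCODE starts of both genes. Their RefSeq starts lie further apart, with 272 bases between them. Those for Acadl (chr1:66863310-66863559) and Acadm (chr3:153944644-153944893) are the 250 bases before each RefSeq start on the minus strand.
Hadha-Hadhb: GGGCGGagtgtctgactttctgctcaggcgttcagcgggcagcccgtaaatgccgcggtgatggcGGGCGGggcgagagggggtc
Acadl: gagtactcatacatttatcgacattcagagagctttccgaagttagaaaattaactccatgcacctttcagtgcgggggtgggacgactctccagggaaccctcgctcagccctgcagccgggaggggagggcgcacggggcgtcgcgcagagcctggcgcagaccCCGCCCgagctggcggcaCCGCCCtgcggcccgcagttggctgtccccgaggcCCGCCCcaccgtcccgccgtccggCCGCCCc
Acadm: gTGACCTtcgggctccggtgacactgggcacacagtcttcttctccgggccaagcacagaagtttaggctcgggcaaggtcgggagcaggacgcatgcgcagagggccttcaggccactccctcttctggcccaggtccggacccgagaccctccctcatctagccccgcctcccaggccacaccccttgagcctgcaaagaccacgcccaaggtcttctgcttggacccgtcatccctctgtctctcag

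The shared stretch of Hadha and Hadhb held GGGCGG 2 times, and the bases before Acadl held it 4 times, while those before Acadm held none of it and 1 match to AGGTCA near the far end. RefSeq windows of 250 bases before to 50 after the start were found for 8 of the 9 genes. GGGCGG was in 6 of these 8 windows (Acadl, Cpt1a, Cpt2, Ech1, Hadha and Hadhb), beside 35.7% of all 32851 windows. AGGTCA was in 3 of 8 (Acadm, Acadvl and Cpt1a), beside 16.3% of all windows. The windows of Hadha and Hadhb overlap by 228 bases, so they are not separate. The peroxisome proliferator response element, searched as AGGTCA repeated in the same direction with any 1 base between, and the longer TCAAGGTCA were in none of the 8, beside 0.0396% and 0.423% of all windows. Matches on either strand were counted, and AGGTCA matches include those inside the longer motifs. These matches describe letters in a window and do not show binding.

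The 12 libraries held 13073189 to 17379314 counts. Levels are given as CPM, counts scaled to a common library total with the TMM factors of edgeR. The sorts differed in markers of other cells, given here as sums of CPM over each list. The 9 macrophage and gate markers had sums of 5752 to 10514 CPM in rhodamine-negative libraries. In rhodamine-positive libraries the sums were 11585 to 13269 CPM, so TAM markers were high in both. Among them Ptprc (CD45) fell while Cd68, Adgre1 and C1qa rose. All 8 of 8 dendritic cell markers fell, from sums of 449.8 to 1684 CPM to sums of 154.6 to 290.04 CPM, and 4 of 7 monocyte markers fell, from 245.1 to 612.9 CPM to 52.2 to 117.4 CPM. All 3 basophil markers tested fell, from 7.20 to 425.3 CPM to 0.062 to 22.6 CPM, and 1 of 7 microglial markers rose, with sums of 4237 to 14668 CPM and 9638 to 15376 CPM. Of 7 glioma and oligodendrocyte markers tested 4 fell, with sums of 94.997 to 147.7 CPM against 43.4 to 131.7 CPM, lower in 6 of 6 mice, though 2 were called without mouse 2 or mouse 6 and 1 without the block. Of 4 B and plasma cell markers tested 1 fell, the plasma cell gene Jchain, from 18.6 to 0.086 CPM on average. The sums of that list were lower in 4 of 6 mice and higher in 2. Of 8 T and NK cell markers, only the cytotoxic lymphocyte gene Gzmb had enough counts to be tested. It fell from 9.52 to 0.312 CPM on average. Of 2 neutrophil markers tested, 1 fell and 1 rose. In addition, 12 of 12 cell cycle genes rose and 7 of 9 immediate early genes fell. The part of these differences in the results below was not tested. In bulk libraries, fewer cells of a type and less RNA per cell cannot be told apart.

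Of the 9 oxidation enzymes, 4 were higher in rhodamine-positive TAMs and none was lower. Hadha, Hadhb, Acaa2 and Acadl rose, by 1.37-fold, 1.41-fold, 1.42-fold and 1.21-fold. The test was edgeR's quasi-likelihood test with the mouse as a block and Benjamini-Hochberg adjustment over all genes tested, at a threshold of 0.05. Among all genes tested, 13% were called higher and 13.2% lower (26.2% in either direction). At an unadjusted p under 0.05, 6 of the 9 were higher and 0 lower, and of all 15014 genes tested 2874 were higher and 2928 lower. DESeq2, limma-voom and limma on the deposited log2 values each called 4 of the 9 higher and 0 lower. The shares of all genes called by these tools are not given here. Over the 9 genes the median log2 fold change was 0.27, and over all genes tested it was -0.02. Of the 9 estimates 8 were above 0, beside 7236 of the 15014 over all genes tested. The ninth, that of Acadm, was near 0 and turned positive when mouse 1 or mouse 6 was left out.

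The pattern was present in each animal, with different extent. In mice 1 to 6, the number of the 9 genes with more CPM in the rhodamine-positive than in the rhodamine-negative library was 8, 7, 8, 9, 9 and 7. The median log2 difference over the 9 genes was 0.30, 0.16, 0.31, 0.40, 0.53 and 0.25 in the same order. Over all genes tested it was -0.0015, -3.5e-05, -0.020, -0.017, 0.036 and -0.013. The share of all genes higher in each single mouse is not given here. Mouse 5 had the widest shift and mouse 2 the narrowest. The rhodamine-negative library of mouse 5 also had the lowest macrophage marker sum of its sort, 5752 CPM. Its dendritic and basophil marker sums, 1684 and 425.3 CPM, were the highest. Whether this bears on the shift was not tested. The summed level of the 9 genes ranged from 566.4 to 649.4 CPM among rhodamine-negative libraries and from 688.1 to 774.2 CPM among rhodamine-positive ones, without overlap. The genes Cpt2, Acadl, Hadha, Hadhb and Acaa2, were higher in all 6 mice, and none of the 9 was lower in all 6. Among all genes tested, 14.2% were higher and 14% lower in all 6.

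**Figure D1:**
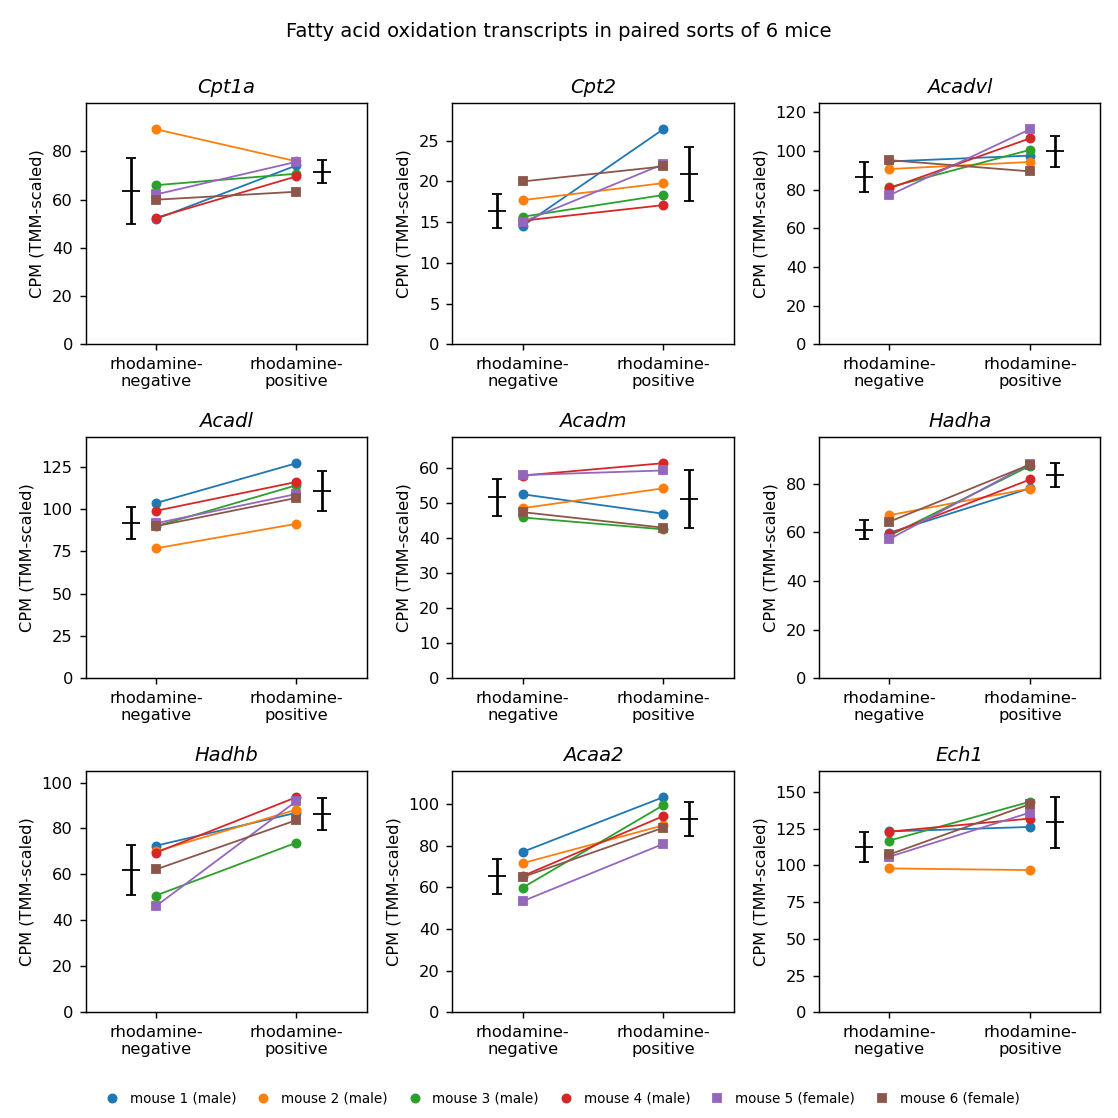
CPM (TMM-scaled, y axis) of the 9 oxidation enzymes in the rhodamine-negative and rhodamine-positive sort of each mouse, with a line per mouse, circles for males, squares for females, and black bars for mean ± SD over 6 libraries. All 6 lines go up for Cpt2, Acadl, Hadha, Hadhb and Acaa2, and the points of the sorts do not overlap for Hadha, Hadhb and Acaa2, while for Acadm 3 lines go up and 3 go down.

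Both subunits of the mitochondrial trifunctional protein rose. Hadha (ENSMUSG00000025745, mm10 chromosome 5, 30118304 to 30155162, minus strand) encodes its alpha subunit, which carries the hydratase and hydroxyacyl-CoA dehydrogenase activities for long chains. It had 57.2 CPM at the lowest, 59.6 at the median and 67.0 at the highest in rhodamine-negative libraries, and 78.0, 84.5 and 88.2 CPM in rhodamine-positive ones. Every rhodamine-positive library was therefore above every rhodamine-negative one. Its mean went from 61.1 ± 3.79 to 83.5 ± 4.87 CPM (SD, n = 6), a log2 fold change of 0.45 (SE 0.08, edgeR adjusted p = 0.00268), and it was higher in 6 of 6 mice. The smallest difference of a pair was 0.22 on the log2 scale, in mouse 2, and the largest 0.62, in mouse 5.

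Hadhb (ENSMUSG00000059447, chromosome 5, 30155248 to 30184593, plus strand) encodes the beta subunit, the long-chain thiolase of the same complex. Its libraries ran from 46.2 through a median of 65.8 to 72.5 CPM in rhodamine-negative sorts and from 73.8 through 87.5 to 93.6 CPM in rhodamine-positive sorts. The ranges did not overlap, though only by a narrow margin, and mice 3 and 5 had the low rhodamine-negative values of 50.8 and 46.2 CPM. The mean rose from 61.8 ± 11.0 to 86.3 ± 7.10 CPM, a log2 fold change of 0.50 (SE 0.10, edgeR adjusted p = 0.00469), in 6 of 6 mice. Mouse 5 had the widest pair difference, 0.99, and the other mice had 0.26 to 0.54. Both subunit transcripts moved in parallel: the ratio of Hadha to Hadhb counts within a library was 1.01 ± 0.16 (SD, n = 6) in rhodamine-negative libraries and 0.97 ± 0.12 in rhodamine-positive ones.

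Reads counted for Hadhb may not be fully its own, because the handling of reads that match several genes is not given in the sources used here. A processed pseudogene, Gm13910, matches its transcript at 99.8% identity over 1428 bases and was given 4295 counts over all libraries, beside 13103 for Hadhb. A further copy, Gm9108, at 97.6% identity, was given 186 counts. Gm13910 was itself called higher, by 0.53 on the log2 scale (SE 0.12, edgeR adjusted p = 0.00873). Its ratio to Hadhb lay between 0.304 and 0.350 in rhodamine-negative libraries and between 0.301 and 0.368 in rhodamine-positive ones. With the counts of Hadhb and both copies summed, a fit added after the data were seen, the log2 fold change was 0.50 (SE 0.10, edgeR adjusted p = 0.00436).

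The thiolase that acts after the long-chain rounds rose to the same extent. Acaa2 (ENSMUSG00000036880, chromosome 18, 74779197 to 74806208, plus strand) encodes the mitochondrial acyl-CoA thiolase of medium chains. It had 53.3 CPM at the lowest, 65.1 at the median and 77.0 at the highest in rhodamine-negative libraries and 80.8, 91.9 and 103.2 CPM in rhodamine-positive ones. The ranges did not overlap, and the rhodamine-positive library of mouse 5, the lowest of its group, was paired with the lowest rhodamine-negative one. The mean went from 65.3 ± 8.36 to 92.6 ± 8.06 CPM, a log2 fold change of 0.51 (SE 0.08, edgeR adjusted p = 0.00126), in 6 of 6 mice. This was the smallest adjusted p of the 9 genes. Hadha, Hadhb and Acaa2 were the 3 of 9 genes whose sorts did not overlap, all higher. Among all genes tested, 4.14% were higher and 4.67% lower without overlap.

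The acyl-CoA dehydrogenases, which open each round and differ in the chain length they prefer, did not move alike. Acadl (ENSMUSG00000026003, chromosome 1, 66830839 to 66863277, minus strand) encodes the long-chain enzyme. Its levels ran from 76.8 through a median of 90.7 to 103.5 CPM in the rhodamine-negative sorts, and from 91.3 through 111.4 to 127.1 CPM in the rhodamine-positive sorts. The ranges overlapped, because mouse 2 was lowest and mouse 1 highest in both sorts, but each pair differed by a similar amount, 0.23 to 0.34 on the log2 scale. The mean went from 91.7 ± 9.17 to 110.6 ± 11.9 CPM, a log2 fold change of 0.27 (SE 0.07, edgeR adjusted p = 0.0197), in 6 of 6 mice. The call was lost without mouse 3 (0.25, edgeR adjusted p = 0.0760), without mouse 6 (0.27, 0.0503), in males alone, without the block, without a filter and with library size alone as the scaling.

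Acadm (ENSMUSG00000062908, chromosome 3, 153922357 to 153944632, minus strand), which encodes the medium-chain enzyme, had nearly equal means in both sorts. It had 45.8 CPM at the lowest, 50.5 at the median and 57.9 at the highest in rhodamine-negative libraries, and 42.5, 50.5 and 61.3 CPM in rhodamine-positive ones. The ranges overlapped throughout, with 3 mice higher and 3 lower. The mean was 51.6 ± 5.29 and 51.2 ± 8.23 CPM, a log2 fold change of -0.02 (SE 0.09, edgeR adjusted p = 0.878), with a 95% interval of -0.21 to 0.17.

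Acadvl (ENSMUSG00000018574, chromosome 11, 70010183 to 70015411, minus strand) encodes the enzyme for very long chains and did not pass the test. It had 77.2, 86.0 and 95.3 CPM at the lowest, median and highest of the rhodamine-negative and 89.5, 99.2 and 111.3 CPM of the rhodamine-positive libraries. The ranges overlapped: mouse 6 went down from 95.3 to 89.5 CPM and mouse 5 up from 77.2 to 111.3 CPM. The means were 86.7 ± 7.86 and 100.04 ± 8.0 CPM, with a log2 fold change of 0.21 (SE 0.10, edgeR adjusted p = 0.137) and 5 of 6 mice higher. Of its exon bases, 42.9% overlap exons of Dvl2 on the opposite strand. The strand setting of the counting is not given in the sources used here, so reads of this pair cannot be told apart.

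Because a ratio of counts within a library does not depend on scaling between libraries, ratios show which of the 9 genes changed unequally. Of the 36 ratios among the 9 genes, 12 shifted the same way in all 6 mice and 2 had sorts that did not overlap. Among all 19173528 ratios of 6193 genes with at least as many counts, 34.1% shifted the same way in all 6 mice and 10.6% did not overlap, so these counts are near or below the background and say nothing about the 9 genes as a group. The ratios named next were chosen after their values were seen. Acadm relative to Hadha went from 0.85 ± 0.12 to 0.62 ± 0.11 and was lower in 6 of 6 mice. Acadm relative to Hadhb went from 0.86 ± 0.21 to 0.59 ± 0.06, with ranges of 0.69 to 1.25 and 0.51 to 0.65 that did not overlap. Acadm relative to Acaa2 went from 0.80 ± 0.16 to 0.56 ± 0.12, again lower in 6 of 6 mice. Acadm thus lost ground to all 3 genes in every animal, and within its own step Acadl gained on it in 6 of 6 mice, from 1.78 ± 0.18 to 2.22 ± 0.46. Acadvl relative to Hadha was the other of the 36 ratios without overlap, 1.42 ± 0.09 against 1.2 ± 0.10. These ratios were not tested, share genes with each other, and show unequal change only.

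**Figure D2:**
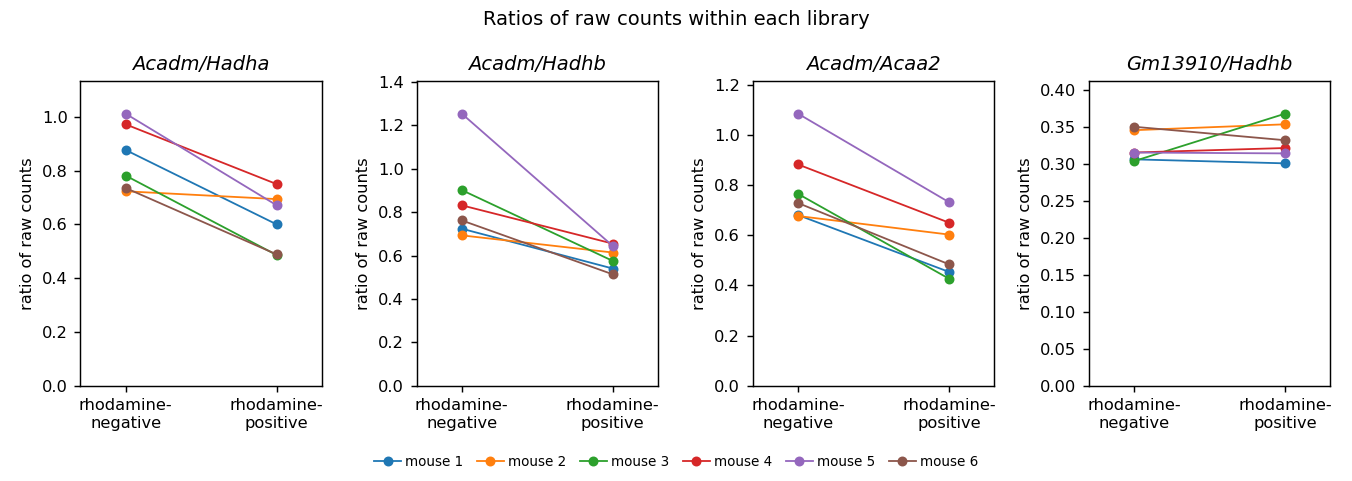
Ratio of raw counts (y axis) of Acadm to Hadha, Hadhb and Acaa2, and of the pseudogene Gm13910 to Hadhb, in both sorts, with a line per mouse. All 6 lines go down in the 3 Acadm panels, and the ratio of Gm13910 to Hadhb stays between 0.301 and 0.368.

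The carnitine palmitoyltransferases, through which long chains enter, had positive estimates that did not pass the test. Cpt1a (ENSMUSG00000024900, chromosome 19, 3322334 to 3385733, plus strand), the enzyme held to control the rate of entry, had 51.9, 61.0 and 89.2 CPM at the lowest, median and highest of the rhodamine-negative libraries and 63.2, 72.4 and 75.9 CPM of the rhodamine-positive libraries. The rhodamine-negative library of mouse 2 was the highest of all 12, and mouse 2 was the animal in which Cpt1a was lower in the rhodamine-positive sort. The means were 63.6 ± 13.7 and 71.5 ± 4.81 CPM, with a log2 fold change of 0.19 (SE 0.10, edgeR adjusted p = 0.201) and a 95% interval of -0.04 to 0.42.

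Cpt2 (ENSMUSG00000028607, chromosome 4, 107903981 to 107923610, minus strand), on the inner membrane, had the fewest counts of the 9, 214 at the lowest. Its libraries ran from 14.5 through a median of 15.4 to 19.98 CPM in rhodamine-negative and from 17.1 through 20.8 to 26.4 CPM in rhodamine-positive sorts. The ranges overlapped, and mouse 1 stood apart with a pair difference of 0.86, beside 0.13 to 0.55 in the others. The means were 16.3 ± 2.1 and 20.9 ± 3.32 CPM, with a log2 fold change of 0.35 (SE 0.13, edgeR adjusted p = 0.0668) and 6 of 6 mice higher.

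Ech1 (ENSMUSG00000053898, chromosome 7, 28825217 to 28832247, plus strand) encodes an isomerase that prepares unsaturated chains for the cycle. It had 97.95, 112.2 and 123.2 CPM at the lowest, median and highest of the rhodamine-negative and 96.8, 134.0 and 143.4 CPM of the rhodamine-positive libraries. The ranges overlapped because mouse 2 was lowest in both sorts, at 97.95 and 96.8 CPM. The means were 112.4 ± 10.2 and 129.3 ± 17.1 CPM, with a log2 fold change of 0.20 (SE 0.09, edgeR adjusted p = 0.117) and 5 of 6 mice higher.

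Per kilobase of the principal GENCODE transcript, the mean levels spanned from Cpt2 to Ech1 in both sorts. In rhodamine-negative libraries Ech1 was highest, at 88.7 ± 8.08 CPM per kb, and Cpt2 lowest, at 6.89 ± 0.88. Between them came Acadl (47.9 ± 4.79), Acaa2 (43.1 ± 5.51), Acadvl (40.0 ± 3.62), Hadhb (30.2 ± 5.37), Acadm (25.2 ± 2.58), Hadha (15.2 ± 0.94) and Cpt1a (14.7 ± 3.17). In this order, the neighbours Acadl and Acaa2, Acaa2 and Acadvl, Hadhb and Acadm, and Hadha and Cpt1a differed by less than the sum of their SDs. In rhodamine-positive libraries Acaa2 (61.1 ± 5.32) was above Acadl (57.7 ± 6.20) by less than their spread, and Hadhb (42.2 ± 3.47) stood further from Acadm (25.0 ± 4.02). Ech1 was at 102.1 ± 13.5 and Cpt2 at 8.82 ± 1.4. The order depended on the length used. Per kilobase of all annotated exons, which include retained introns, Ech1 (49.2 ± 4.48) and Acadl (45.8 ± 4.57) lay within their spread in rhodamine-negative libraries, and so did Cpt2 (6.83 ± 0.88) and Hadha (6.99 ± 0.43). On that scale Acadm (13.2 ± 1.35) was above Hadhb (9.38 ± 1.67), and in rhodamine-positive libraries Acaa2 (61.1 ± 5.32) was above Ech1 (56.6 ± 7.51) by less than their spread.

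No difference between females and males in these changes passed the test. In a fit with a term for sex by sort, 0 of 15014 genes were called by edgeR, 1160 had an unadjusted p under 0.05, and none of the 9 was among them. For Hadhb the mean pair difference was 0.39 in 4 males and 0.71 in 2 females, a difference of 0.32 (SE 0.20, edgeR adjusted p = 0.677). For Ech1 it was 0.10 and 0.38, a difference of 0.28 (SE 0.16, edgeR adjusted p = 0.674). With 2 females, these estimates have wide errors.

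Of 17 other genes of the mitochondrial pathway 16 were tested, and 7 rose and 1 fell (median log2 fold change 0.34). The later enzymes for shorter chains were among those that rose: Hadh, a hydroxyacyl-CoA dehydrogenase, went from 31.4 ± 6.39 to 49.8 ± 5.78 CPM (log2 fold change 0.68, SE 0.12). Echs1, the short-chain hydratase, went from 101.4 ± 20.6 to 152.9 ± 10.7 CPM (0.62, SE 0.11), and Acads, the short-chain dehydrogenase, from 13.2 ± 3.7 to 19.8 ± 2.85 CPM (0.62, SE 0.16). All 3 genes that take electrons from the acyl-CoA dehydrogenases to the respiratory chain rose, Etfa by 0.32, Etfb by 0.50 and Etfdh by 0.45 on the log2 scale. Crat, which exchanges acetyl groups between CoA and carnitine, rose from 81.3 ± 12.3 to 129.1 ± 17.97 CPM (0.67, SE 0.11). Slc25a20, the carrier that moves acylcarnitines from the side of Cpt1a to that of Cpt2, was the gene that fell, from 44.0 ± 5.38 to 35.3 ± 2.94 CPM (log2 fold change -0.32, SE 0.10, edgeR adjusted p = 0.0370), in 6 of 6 mice. It stayed lower but was not called without mouse 1, 3, 4, 5 or 6 in turn (-0.25 to -0.35, edgeR adjusted p = 0.0584 to 0.115), in males alone (0.130) or without a filter (0.0927). Etfa, Etfb and Acads were not called without mouse 3 or without mouse 6, and the list then held 4 genes higher. With library size alone as the scaling these genes were not called either (edgeR adjusted p = 0.164, 0.0657 and 0.0590). Etfa and Etfb also lost their calls in males alone (0.143 and 0.156), and Etfb without the block (0.0610). The other 8 genes tested did not pass, among them Decr1 (0.36) and Acat1 (0.07). Cpt1b, the muscle form of the entry enzyme, had at most 6 counts in a library and was not tested.

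**Figure D3:**
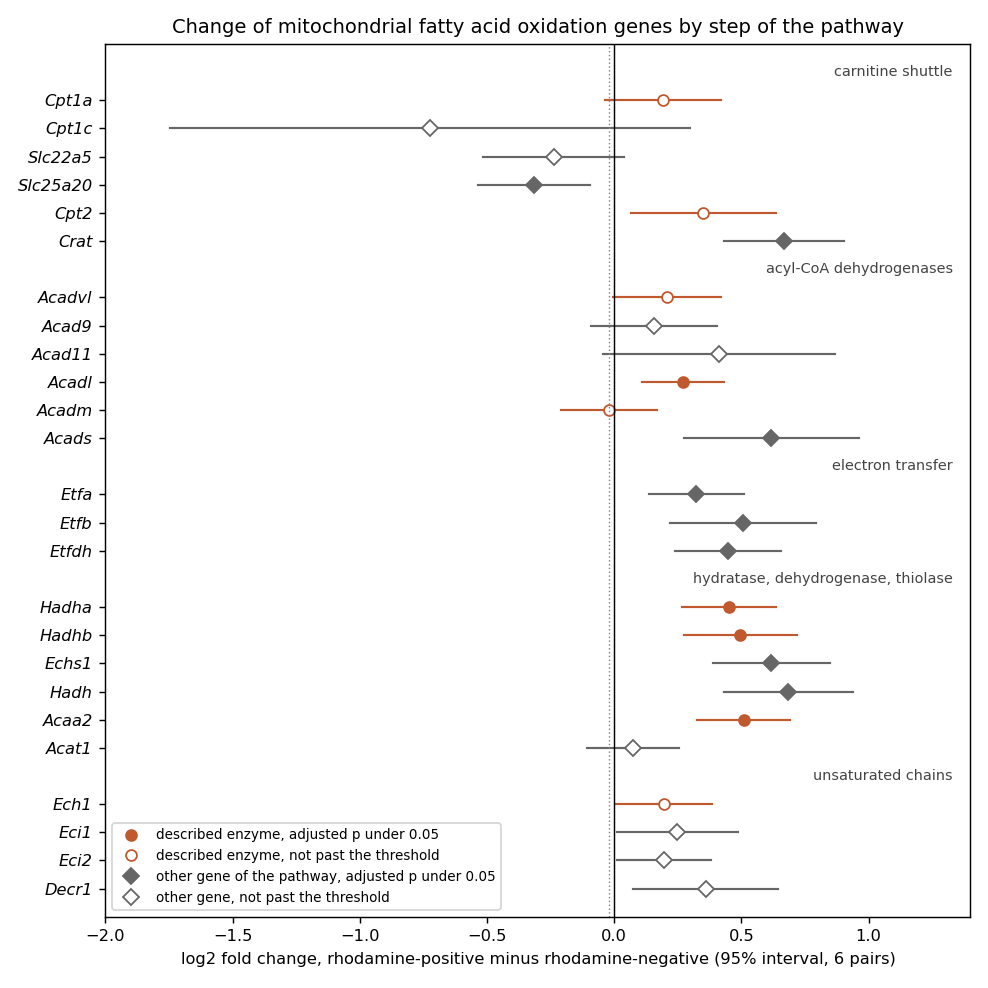
Log2 fold change with its 95% interval (x axis, 6 pairs) of the 9 oxidation enzymes (orange circles) and the 16 other mitochondrial oxidation genes tested (grey diamonds), grouped by step, with filled symbols for adjusted p under 0.05 and a dotted line at the median of all genes, -0.02. The genes of electron transfer are filled and to the right, though the calls of Etfa and Etfb were lost without mouse 3 or mouse 6. Slc25a20 is filled and to the left at -0.32, a call that was lost when any of 5 mice was left out. Acadm lies on the dotted line.

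Other mitochondrial genes shifted by about as much as the oxidation enzymes. Of 16 nuclear genes of the respiratory chain 13 rose and none fell, with a median of 0.36, Atp5a1 of the ATP synthase going from 497.9 to 718.2 CPM on average. Of 15 genes of protein import and mitochondrial membranes 10 rose and none fell, with a median of 0.28. Of 17 genes of the tricarboxylic acid cycle 9 rose, with a median of 0.28, and Mdh2, a malate dehydrogenase, fell by 0.59 on the log2 scale (SE 0.11). None of the 10 mitochondrially encoded genes tested passed edgeR's test (1 had an unadjusted p under 0.05), and their median was 0.25. With library size alone as the scaling, the median over all genes was -0.18 and fewer genes were called higher in the respiratory chain (5), import (4), the cycle (2) and the other oxidation list (4). In the respiratory chain list 8 were called without mouse 3 or mouse 6, 7 without the block and 5 in males alone; in the import list 6 without mouse 2, mouse 6 or the block and 4 in males alone; and in the cycle list 6 in males alone. Of the mitochondrially encoded genes, 5 were called higher without mouse 4 and 4 without a filter. The shift of the oxidation enzymes was not tested against that of these lists.

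Peroxisomal oxidation, which shortens chains too long for mitochondria, had 5 genes that rose and 1 that fell among 17 tested (median 0.26), with 3 called higher without mouse 1, 3 or 5 or in males alone and 2 with library size alone. Abcd3, a transporter of the peroxisomal membrane, rose by 0.62 on the log2 scale (SE 0.10), and Phyh, which starts the breakdown of branched chains, rose by 0.49 (SE 0.10). Of 23 genes of fatty acid supply and activation 5 rose and 4 fell. Fabp5, a fatty acid binding protein, rose from 249.6 to 681.3 CPM, Plin2, a coat protein of lipid droplets, from 483.3 to 737.4 CPM, and Lipa, the lysosomal acid lipase, from 242.9 to 377.6 CPM. Those that fell were Lipe, the hormone-sensitive lipase (from 37.0 to 22.7 CPM), Dgat1 (70.8 to 37.5), Dgat2 (17.2 to 10.7) and Hilpda (76.3 to 57.2). Dgat1 and Dgat2 make triglyceride, and Hilpda is a lipid droplet protein. The 4 log2 fold changes, in that order, were -0.67, -0.75, -0.68 and -0.41. Dgat2 was not called without the block (edgeR adjusted p = 0.0842) or in males alone (0.0625), nor was Hilpda without the block (0.424). Without mouse 5, Dgat1 was -0.49 and still called. Fatty acid synthesis was divided, with 3 of 10 genes higher and 3 lower, and each number was 1 without mouse 1, mouse 5 or the block.

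Transcripts of known regulators did not rise as a group. Of 20 tested, 2 rose and 3 fell, with a median of -0.24, and with library size alone as the scaling 6 fell. Esrra, a nuclear receptor that acts on oxidation genes, fell from 20.02 to 14.6 CPM on average (log2 fold change -0.45, SE 0.12). That call was lost without mouse 3 or mouse 5 and in males alone (edgeR adjusted p = 0.0889 in males). Rxrb fell by 0.49 and Prkab2 by 0.82 (SE 0.17) on the log2 scale. Rxrb was not called without the block (edgeR adjusted p = 0.0891), and other settings are not given here for Prkab2. Rxra, a partner of the peroxisome proliferator-activated receptors, rose from 30.0 to 42.7 CPM (0.54, SE 0.12). Without the block Rxra was not called (edgeR adjusted p = 0.0753). Ppara, the receptor best known for driving these enzymes in liver, had at most 1 count in any library, and its coactivator gene Ppargc1a at most 5. Of 9 target genes of these receptors outside oxidation, 4 had enough counts, and Angptl4 and Ucp2 were called higher. Neither was called without the block or with library size alone. Angptl4 also lost its call without mouse 1, 4, 5 or 6, and Ucp2 (edgeR adjusted p = 0.0498) without mouse 1, 2, 3, 4 or 5.

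**Figure D4:**
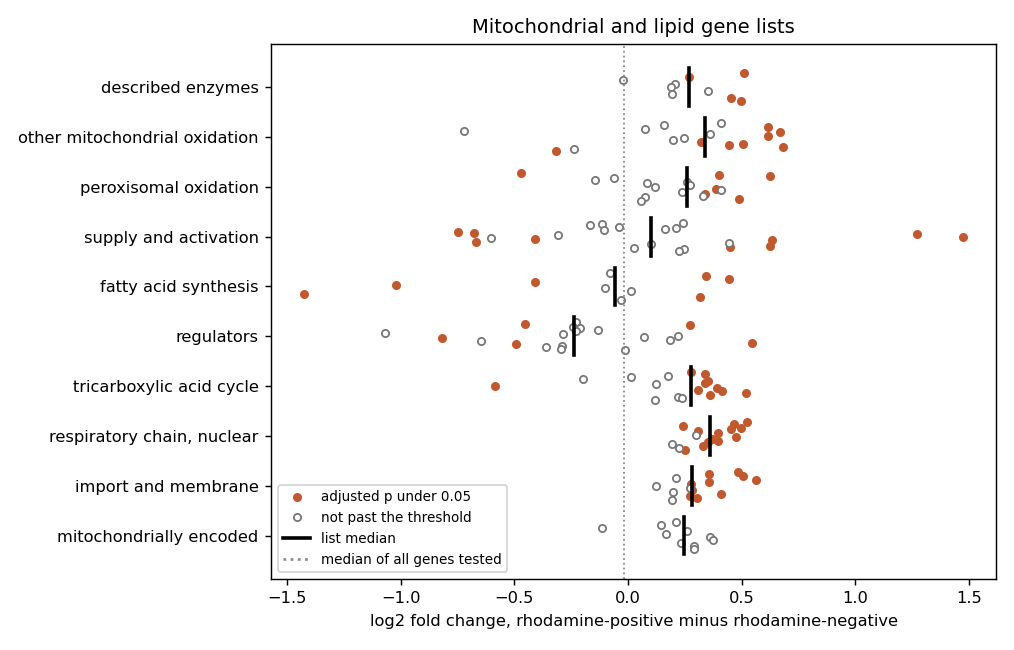
Log2 fold change (x axis) of each gene tested in 10 lists of mitochondrial and lipid genes (rows), filled orange where the adjusted p was under 0.05, with black bars for list medians and a dotted line for the median of all genes, -0.02. The medians of the oxidation, cycle, respiratory chain, import and mitochondrially encoded lists lie between 0.25 and 0.36, and that of the regulators at -0.24.

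The genes most like Acaa2 over the 12 libraries were Fuca2, Atp6ap1, Wbp2, Gabarap and Snx12. Likeness was the root mean square difference of mean-centred log2 CPM among 9317 genes, and it was 0.092 for Fuca2 and 0.104 for Snx12, where Acaa2 itself varied by 0.29 around its mean. For Acadm, the gene with a negative estimate, they were Pcnp, Trub1, Cpsf2, Gabpb1 and Ankrd26, at 0.101 to 0.123, where Acadm varied by 0.18. This is a description over shared libraries.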

How the data were processed

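Polyadenylated RNA of both sorts of 6 mice was read on an Illumina HiSeq instrument. The authors deposited raw counts per gene, as a table and as 1 file per library with the same values, and a table of log2 values for 10605 genes, which were log2 CPM plus a constant per library. The tools were HISAT2 2.1.0, featureCounts 1.4.4, cutadapt, limma, edgeR and bcl2fastq 2.17, with build mm10, per the submitters' processing notes. Their parameters and the strand setting are not given in the sources used here.

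The deposited counts were tested with the quasi-likelihood test of edgeR 4.0.16 (R 4.3.3), TMM scaling, the mouse as a block, filterByExpr by group (minimum count 10, minimum total 15; 15014 genes with 99.8% of counts) and Benjamini-Hochberg adjustment. SE was computed from the log2 fold change and its F statistic. Log2 CPM used a prior count of 2. Both sorts came from the same tumours; deviations from the group means correlated at r = 0.323, 0.406, 0.562, 0.169, 0.312 and 0.651 in mice 1 to 6, across 9318 genes, and for mouse 4 the correlation was below the highest with another mouse (0.227). Libraries of a group differed by at least 17.5 per degree of freedom (chi-square). The fit was also run on counts simulated from its own means and dispersions, without differences in cell makeup, and no conclusion is drawn from that run. Coordinates are GENCODE vM21, promoters RefSeq, and copies were found with blastn at 95% identity over at least 300 bases. Alternatives were other scalings, filters and tools (DESeq2 1.42.0, limma 3.58.1), males alone, no block and each mouse left out.

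The 9 genes and the other 23 lists were chosen with earlier results of these data known. Named genes were the 9, the other mitochondrial oxidation genes, up to 4 genes of smallest p per other list, and the 5 nearest neighbours of 2 members. Others (Ppara, Ppard, Pparg, Ppargc1a, Dvl2, Lipe, Dgat1, Dgat2, Hilpda and the pseudogenes) were named after their values were seen. Some genes that the rule names are given no value here.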

Additional observations from a re-analysis of the deposited data

Results flagged for a closer look

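The Ech1 level in the rhodamine-positive library of mouse 2 lay apart from the other 5 of its group. It was 96.8 CPM, where the nearest was 126.2 CPM and the highest 143.4 CPM. The gap was 0.631 of the whole range, above Dixon's 95% critical value for 6 samples. The check was run on 27 groups of values, and chance flags about 1 in 20.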

How the results depend on the processing

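Hadha, Hadhb and Acaa2 were called higher in all 17 other settings, 1 of them (the summed copies of Hadhb) chosen after the data were seen, with log2 fold changes of 0.29 to 0.50, 0.34 to 0.54 and 0.35 to 0.54. Acadl was not called without the replicate block (0.27, edgeR adjusted p = 0.0764), with library size alone (0.11, 0.282), without a filter (0.28, 0.0734), in males alone (0.27, 0.0728), without mouse 3 (0.25, 0.0760) and without mouse 6 (0.27, 0.0503); its adjusted p over all alternatives was 0.0136 to 0.282. Acadm turned from -0.02 to 0.0067 without mouse 1 and 0.0028 without mouse 6, and was -0.060 at the lowest with 1 mouse left out. With library size alone, Acadm was -0.18 (edgeR adjusted p = 0.136). In that setting Cpt1a was 0.031, Cpt2 0.19 and Acadvl 0.048. Leaving out the mouse block changed no other call among the 9 genes. Over all genes, 1270 were called higher and 1398 lower without the block, against 1955 and 1986 with it. Library size alone gave 852 higher and 3142 lower, and males alone 1005 and 1222. Leaving out 1 mouse gave 1257 to 1780 higher and 1421 to 1820 lower. Over the other lists apart from cell type markers, 68 calls higher became 35 with library size alone, 42 in males alone and 48 to 66 with 1 mouse left out. The cause of these changes was not tested. Males alone and the fits with a mouse left out also had fewer samples. Cpt2 had the fewest counts, 214 to 395 per library, and 6 pairs limit the precision of every estimate.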
